A study of Mus musculus with 10 samples.

Results

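The genes of cholesterol synthesis, transport and turnover were followed in the mouse dentate gyrus, the part of the hippocampus in which granule neurons are still born after birth. The set holds 33 genes named by their role: 18 enzymes of synthesis, 5 genes that control the SREBP factors, 3 of lysosomal export and transfer inside the cell, 5 of efflux and its control, and 2 of turnover and storage. A gene was taken as measured where a probe set of the array was annotated to that gene alone, and the brightest such probe set was used. This gave 30 of the 33 members, out of 19752 genes in all. Acat2, Nr1h2 and Soat1 had no such probe set and were not analysed here.

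Dentate gyri were taken from C56BL/6J mice, as the strain is spelled in the labels, at 4, 6, 8, 10 and 12 weeks of age, with 2 arrays per age and 10 arrays in all. The labels name no transgene and no treatment, and age is the only factor by which they set the groups apart. Whether both arrays of an age stand for different animals or for pooled tissue is not stated, and p-values therefore reflect array-to-array spread, some of which may be technical. Levels are log2 units of array signal, in which a difference of 1 is a doubling, and they compare the same gene between arrays, not one gene with another.

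The brain makes nearly all of its own cholesterol, because lipoproteins of the blood do not cross the blood-brain barrier. Myelin holds most of it, oligodendrocytes and astrocytes are its main makers, and neurons take it up on lipoprotein particles that carry apolipoprotein E. Enzymes of the pathway are transcribed under the sterol-sensing factors SREBP1 and SREBP2, whereas the liver X receptors turn on the efflux transporters when sterols are plentiful, and neurons dispose of cholesterol by hydroxylating it through Cyp46a1.

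Some facts of the arrays bear on what follows. Array-to-array correlations over all genes ran from 0.994 to 0.998, and no arrays were identical. Mean correlation with the other arrays was lowest, at 0.9952, for 8 weeks replicate 1. On 6 weeks replicate 1 the choroid plexus gene Ttr reached 13.77, against 8.87 to 10.15 elsewhere. Below, 8 weeks replicate 1 and 6 weeks replicate 1 are called the arrays that stand apart. The labels give the sex as female, but Uty, Kdm5d and Eif2s3y of the Y chromosome lay between 8.59 and 9.34 on all arrays, and Xist between 5.41 and 6.02. Olfactory, vomeronasal and trace amine receptor genes, 1207 in all, served as a guide to dim signal, and the 95th percentile of their levels averaged 7.01. All 30 members lay above it, the dimmest being Nr1h3 with a mean of 7.83. The 6 granule cell marker genes had list means between 11.13 and 11.27 on all arrays, but 2 of them moved in opposite directions in a limma trend over age. Tdo2 fell by 0.44 ± 0.08 on the log2 scale (SE, limma adjusted p = 0.032), and Ntng1 rose by 0.55 ± 0.09 (adjusted p = 0.014). Leaving out single arrays ended the call of Tdo2 in 7 of 10 cases (adjusted p up to 0.15) and that of Ntng1 in 3, without either 4-week array or 12 weeks replicate 1 (up to 0.068).

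RefSeq promoter windows, from 250 bases before to 50 after a transcription start (assembly GRCm38.p6), were available for 24 of the 30 measured members, 14 of them enzymes of synthesis. They are shown because SREBP factors are known to act near the start of these genes together with the factors NF-Y and Sp1. The window of Hmgcs1 held the motif TCACNCCAC, a common form of the sterol regulatory element, at position −137 relative to the transcription start. The letters stood on either strand in 1 of the 14 enzymes with a window and in 1.4% of all 15483 measured genes with one. The NF-Y box CCAAT, searched on both strands, stood in 14 of 14 enzymes of synthesis, in 4 of 5 SREBP control genes and in 0 of 3 genes of efflux, against 41.7% of all measured genes. Npc2 of transport and Cyp46a1 of turnover, each the only gene of its role with a window, held it too. The Sp1 box GGGCGG stood in 13 of the 14 enzymes, against 53.2% of all measured genes. Matches of different motifs were counted separately and may overlap, a gene with several windows was counted once, and a match is a description of the letters only. In the windows of 4 enzymes and, for contrast, of the efflux gene Abca1, capitals mark the NF-Y boxes on either strand and the sterol regulatory element.
Hmgcs1, chr13:119690101-119690400, plus strand: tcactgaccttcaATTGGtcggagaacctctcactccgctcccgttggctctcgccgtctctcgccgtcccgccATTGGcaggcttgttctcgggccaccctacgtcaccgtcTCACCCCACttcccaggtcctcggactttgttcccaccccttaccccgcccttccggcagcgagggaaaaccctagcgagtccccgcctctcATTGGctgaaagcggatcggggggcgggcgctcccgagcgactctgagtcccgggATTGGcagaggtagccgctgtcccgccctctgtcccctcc
Lss, chr10:76531355-76531654, plus strand: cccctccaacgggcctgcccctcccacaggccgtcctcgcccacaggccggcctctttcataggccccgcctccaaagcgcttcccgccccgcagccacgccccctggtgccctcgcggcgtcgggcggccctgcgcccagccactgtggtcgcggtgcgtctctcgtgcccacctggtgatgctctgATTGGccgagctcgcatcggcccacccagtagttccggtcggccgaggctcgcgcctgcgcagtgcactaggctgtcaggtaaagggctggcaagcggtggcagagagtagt
Tm7sf2, chr19:6067801-6068100, minus strand: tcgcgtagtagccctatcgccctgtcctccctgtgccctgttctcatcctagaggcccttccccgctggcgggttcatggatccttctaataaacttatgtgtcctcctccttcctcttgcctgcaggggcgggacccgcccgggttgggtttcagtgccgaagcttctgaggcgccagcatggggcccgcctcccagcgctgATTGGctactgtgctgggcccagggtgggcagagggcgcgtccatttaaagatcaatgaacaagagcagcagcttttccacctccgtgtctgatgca
Nsdhl, chrX:72918271-72918570, plus strand: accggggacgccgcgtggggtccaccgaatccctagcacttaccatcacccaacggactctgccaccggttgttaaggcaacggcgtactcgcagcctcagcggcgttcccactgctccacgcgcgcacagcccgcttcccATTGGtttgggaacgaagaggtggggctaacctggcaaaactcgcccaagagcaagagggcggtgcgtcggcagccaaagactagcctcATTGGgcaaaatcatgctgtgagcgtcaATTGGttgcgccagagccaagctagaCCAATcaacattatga
Abca1, chr4:53159846-53160145, minus strand: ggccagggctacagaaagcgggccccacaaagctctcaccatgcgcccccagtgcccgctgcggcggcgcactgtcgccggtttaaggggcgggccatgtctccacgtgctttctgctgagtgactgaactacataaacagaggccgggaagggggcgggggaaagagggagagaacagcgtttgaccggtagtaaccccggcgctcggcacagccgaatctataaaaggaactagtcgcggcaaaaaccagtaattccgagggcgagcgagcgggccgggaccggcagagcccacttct
The Hmgcs1 window held 4 NF-Y boxes beside its sterol element, that of Nsdhl 4, and those of Lss and Tm7sf2 1 each, while that of Abca1 held 0.

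The main comparison asked whether a gene's level had a linear trend over the 5 ages. Each change is the fitted difference over the 8 weeks of the series, so a negative value means lower at the older ages. All 17 measured enzymes of synthesis had a change below 0, against 48.8% of all genes. Their median change was −0.28, against 0.00 for all genes, and the range ran from −0.52 (Sqle) to −0.07 (Hsd17b7). No member passed limma at an adjusted p under 0.05, where 0.82% of all genes passed. At an unadjusted p under 0.05, 11 of the 17 enzymes had lower levels with age, against 7.28% of all genes. Of the other 13 members only Abcg1 reached it, with higher levels, against 4.41% of all genes. Among all genes 133 fell and 29 rose, and with quantile normalization 131 fell and 65 rose. In tissue RNA fewer cells of a type and less RNA per cell cannot be told apart. Without 12 weeks replicate 2, however, Sqle (adjusted p = 0.0079), Nsdhl (0.016) and Msmo1 (0.035) passed, and without 8 weeks replicate 1 Tm7sf2 did (0.013). The number at an unadjusted p under 0.05 ran from 8 to 13 when any array was left out.

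**Figure D1:**
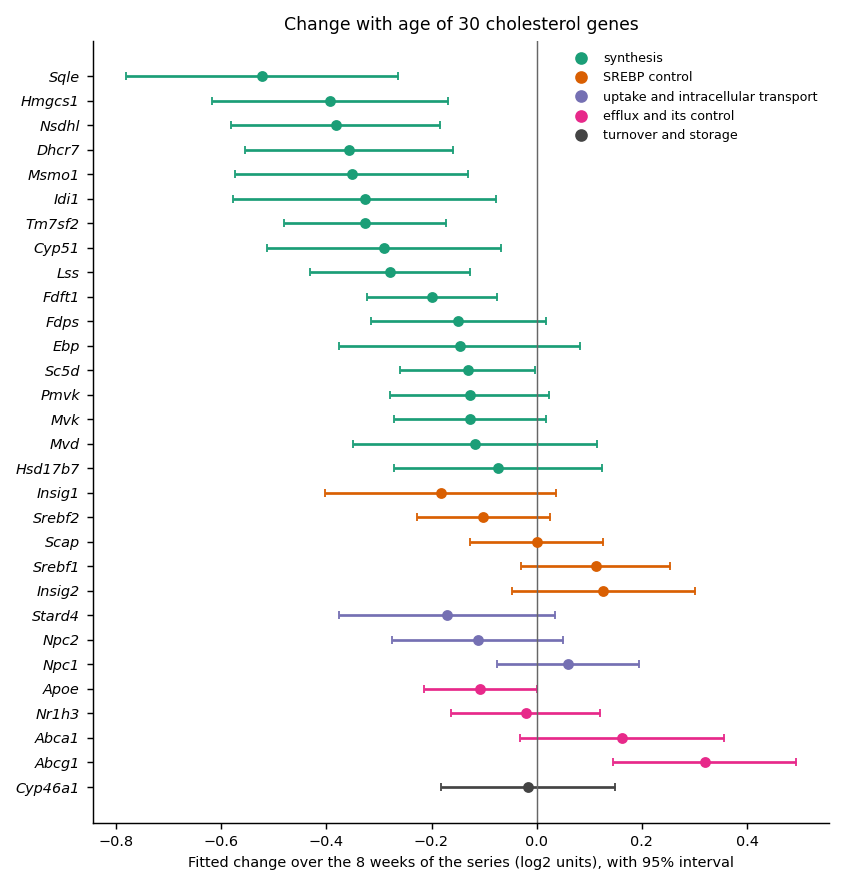
Fitted change over the 8 weeks of the series for the 30 measured members, in log2 units, with 95% intervals from the limma trend on 10 arrays. All 17 enzymes of synthesis lie left of 0, and Abcg1 lies farthest right at 0.32. The genes of SREBP control, transport and turnover have intervals that include 0. So do the enzymes Mvk, Pmvk, Mvd, Fdps, Hsd17b7 and Ebp, and the efflux genes Apoe, Abca1 and Nr1h3.

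The early steps make mevalonate from acetyl-CoA and turn it into isoprenoid units. Hmgcs1, whose product HMG-CoA is the precursor of mevalonate (chromosome 13, 119690351 to 119708260, mm10), lay at 11.14 and 11.25 at 4 weeks, 11.08 and 11.07 at 6 weeks, 11.14 and 10.98 at 8 weeks, 10.66 and 10.88 at 10 weeks, and 10.71 and 11.00 at 12 weeks. Both 4-week arrays stood above all later ones, though 8 weeks replicate 1 was equal to the lower of them at this rounding, and the 10-week arrays and 12 weeks replicate 1 were the 3 lowest. Its change was −0.39 ± 0.10 (SE, limma adjusted p = 0.12), or 1.31-fold lower over the series.

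Idi1, the isomerase that forms the reactive isoprene unit, stood at 9.63 and 9.74 at 4 weeks, 9.55 and 9.51 at 6 weeks, 9.49 and 9.35 at 8 weeks, 9.08 and 9.35 at 10 weeks, and 9.35 and 9.52 at 12 weeks. The 4-week arrays were again the highest, and 10 weeks replicate 1 was the lowest. Its change was −0.33 ± 0.11 (adjusted p = 0.26). The other probe set of Idi1 differed between the 12- and 4-week means by −0.21, and the one used by −0.25. Mevalonate kinase, Mvk, had a change of −0.13 ± 0.07 and phosphomevalonate kinase, Pmvk, one of −0.13 ± 0.07, and both had their 12-week arrays below their 4-week arrays. For the decarboxylase Mvd (−0.12 ± 0.11) and the farnesyl diphosphate synthase Fdps (−0.15 ± 0.08) the 12- and 4-week arrays overlapped, with 12 weeks replicate 2 of Mvd at 9.35, above both 4-week arrays.

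The next steps commit the pathway to sterols. Sqle, squalene epoxidase, a rate-limiting oxygenase (chromosome 15, 59315092 to 59331193), lay at 10.23 and 10.43 at 4 weeks, 10.05 and 10.12 at 6 weeks, 10.07 and 10.01 at 8 weeks, 9.69 and 9.86 at 10 weeks, and 9.62 and 10.05 at 12 weeks. The 4-week arrays were the highest, and the 12-week arrays lay farther apart than the arrays of any other age. Its change of −0.52 ± 0.12 (adjusted p = 0.066) was the largest of the members, 1.44-fold lower.

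Lss, which closes squalene epoxide into lanosterol (chromosome 10, 76531565 to 76557139), stood at 9.02 and 9.13 at 4 weeks, 8.94 and 8.99 at 6 weeks, 8.87 and 8.97 at 8 weeks, 8.77 and 8.87 at 10 weeks, and 8.70 and 8.90 at 12 weeks. Its age means were lower at every step, as were those of Fdft1 and Apoe among the members, against 2.23% of all genes. The change was −0.28 ± 0.07 (adjusted p = 0.096). Fdft1, squalene synthase, which makes the first committed sterol precursor, had a change of −0.20 ± 0.06 (adjusted p = 0.16). Its age means were 11.76, 11.65, 11.63, 11.56 and 11.56 from 4 to 12 weeks, and its other probe set differed by −0.15 between the 12- and 4-week means, against −0.20 for the one used.

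Lanosterol is then trimmed to cholesterol by demethylation, reduction and isomerisation. Cyp51, the demethylase that opens this stage, lay at 9.82 and 9.99 at 4 weeks, 9.75 and 9.71 at 6 weeks, 9.64 and 9.67 at 8 weeks, 9.40 and 9.51 at 10 weeks, and 9.67 and 9.69 at 12 weeks. The levels stood lowest at 10 weeks, and at 12 weeks the arrays lay within the range of the 8-week pair or just above it. The change was −0.29 ± 0.10 (adjusted p = 0.26).

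Tm7sf2, a sterol reductase of the endoplasmic reticulum (chromosome 19, 6062821 to 6067850), stood at 8.88 and 8.90 at 4 weeks, 8.90 and 8.86 at 6 weeks, 8.95 and 8.80 at 8 weeks, 8.68 and 8.71 at 10 weeks, and 8.55 and 8.59 at 12 weeks. Both 12-week arrays lay below all others and close together. The change was −0.33 ± 0.07, with the lowest adjusted p of the members, 0.055.

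Msmo1, the methyl sterol oxidase, lay at 10.92 and 11.02 at 4 weeks, 10.79 and 10.90 at 6 weeks, 10.65 and 10.71 at 8 weeks, 10.45 and 10.61 at 10 weeks, and 10.57 and 10.80 at 12 weeks. Nsdhl, the sterol dehydrogenase that follows it (chromosome X, 72918521 to 72958528), stood at 9.67 and 9.83 at 4 weeks, 9.63 and 9.59 at 6 weeks, 9.55 and 9.56 at 8 weeks, 9.30 and 9.33 at 10 weeks, and 9.29 and 9.55 at 12 weeks. In both, the 4-week arrays lay above all later ones, and 12 weeks replicate 2 lay above both 10-week arrays. The changes were −0.35 ± 0.10 for Msmo1 (adjusted p = 0.17) and −0.38 ± 0.09 for Nsdhl (0.078). Hsd17b7, the ketosteroid reductase that acts after Nsdhl, had the smallest change of the enzymes, −0.07 ± 0.09.

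Dhcr7, the reductase of the final step of 1 branch of the pathway, lay at 9.83 and 9.82 at 4 weeks, 9.78 and 9.91 at 6 weeks, 9.79 and 9.60 at 8 weeks, 9.50 and 9.41 at 10 weeks, and 9.56 and 9.59 at 12 weeks. All 4- and 6-week arrays stood above all 10- and 12-week arrays, and the change was −0.36 ± 0.09 (adjusted p = 0.10). The sterol isomerase Ebp (−0.15 ± 0.11) and the desaturase Sc5d (−0.13 ± 0.06) did not pass either. Ebp had its lowest levels, 9.05 and 9.20, at 10 weeks, and its 12-week levels of 9.37 and 9.36 lay between the 4-week arrays at 9.42 and 9.36.

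**Figure D2:**
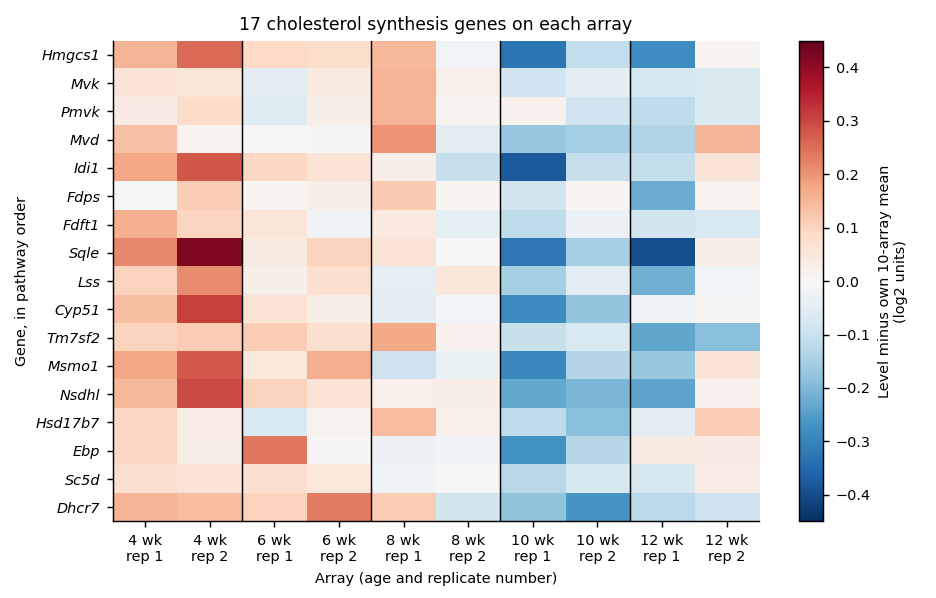
Level of each of the 17 enzymes on each array minus that gene's own mean over the 10 arrays, in log2 units (red above, blue below), with genes in pathway order and arrays by age and replicate number. At 4 weeks 16 and 17 of the 17 enzymes lie above their own mean, at 10 weeks 1 and 1, and the 12-week arrays differ from each other with 1 and 11.

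The time course of the enzymes was not even. The count of enzymes above their own mean was 16 and 17 of 17 on the 4-week arrays, 14 and 16 at 6 weeks, 12 and 7 at 8 weeks, 1 and 1 at 10 weeks, and 1 and 11 at 12 weeks. All 17 were lower at 10 than at 8 weeks, against 60.1% of all genes, with a median difference of −0.18. The step was not particular to the enzymes. Of the 13 other members 10 were lower at 10 weeks, with a median over the 13 of −0.08. Of 54 other genes of sterol and lipid handling 43 were lower, with a median over the 54 of −0.05. From 10 to 12 weeks the median difference was 0.08, and 6 of 17 were lower at 12 weeks, against 53% of all genes. The step from 4 to 6 weeks had a median of −0.09, with 15 of 17 lower at 6 weeks against 47% of all genes. That from 6 to 8 weeks had a median of −0.04, with 11 of 17 lower at 8 weeks against 45.2%. Without 8 weeks replicate 1 the 10 versus 8 week median was −0.14, and all 17 were still lower at 10 weeks. The 12 versus 10 week median was 0.23 without 12 weeks replicate 1 and −0.01 without 12 weeks replicate 2, so its direction depended on that array.

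No member and no other gene passed any single step in limma at an adjusted p under 0.05. At an unadjusted p under 0.05, 6 of the 17 enzymes were lower at 10 than at 8 weeks (Hmgcs1, Cyp51, Tm7sf2, Nsdhl, Hsd17b7 and Dhcr7), against 3.6% of all genes. In the step from 10 to 12 weeks 3 were higher at that level (Cyp51, Hsd17b7 and Ebp), against 2.72% of all genes. In the step from 4 to 6 weeks Cyp51 was lower (−0.18, against 1.88% of all genes) and Abcg1 higher (0.22, against 2.24%). From 6 to 8 weeks no member reached it, against 6.25% of all genes. Among all genes, 815, 1234, 946 and 1104 reached an unadjusted p under 0.05 in the 4 steps in order of age.

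The arrays of 12 weeks differed from each other for these genes. Of the 17 enzymes 16 were higher on replicate 2 than on replicate 1, by a median of 0.16, while over all genes 56.2% were higher on replicate 2, by a median of 0.02. The gap was also one-sided at 10 weeks, where 14 of 17 were higher on replicate 2, by a median of 0.09. At 4, 6 and 8 weeks replicate 2 was the higher array for 10, 9 and 6 of the 17. The 6 endothelial marker genes had a mean of 8.98 on 12 weeks replicate 2 and 8.65 on replicate 1, and the 4 meningeal genes 9.01 and 8.67, whereas myelin genes had 9.97 and 9.95. Their part in the gap was not tested.

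Levels at the ends of the series gave a like picture, and this comparison is not independent of the trend. All 17 enzymes had a lower mean at 12 than at 4 weeks, with a median difference of −0.23, while 49.7% of all genes were lower. In 13 of the 17 both 12-week arrays lay below both 4-week arrays, against 22.2% of all genes. None passed in limma, where 0.516% of all genes did, but Tm7sf2 and the efflux gene Abcg1 passed without either of the 8-week arrays. Of the 17, 10 reached an unadjusted p under 0.05, all of them lower, against 5.43% of all genes. Abcg1 was the member that was higher at that level, against 4.15% of all genes. An F-test over any ages called no member either, against 0.167% of all genes. At an unadjusted p under 0.05 it held 10 members, 9 of them enzymes, against 8.46% of all genes.

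The enzymes moved with each other from array to array. Over the 10 arrays the median Pearson correlation between 136 pairs of enzymes was 0.66, and 135 pairs were above 0. With each age's mean taken out the median was 0.45. These values describe arrays that share dissection and labelling, and carry no test. No like values were computed for other genes, so whether they are particular to the enzymes was not tested.

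**Figure D3:**
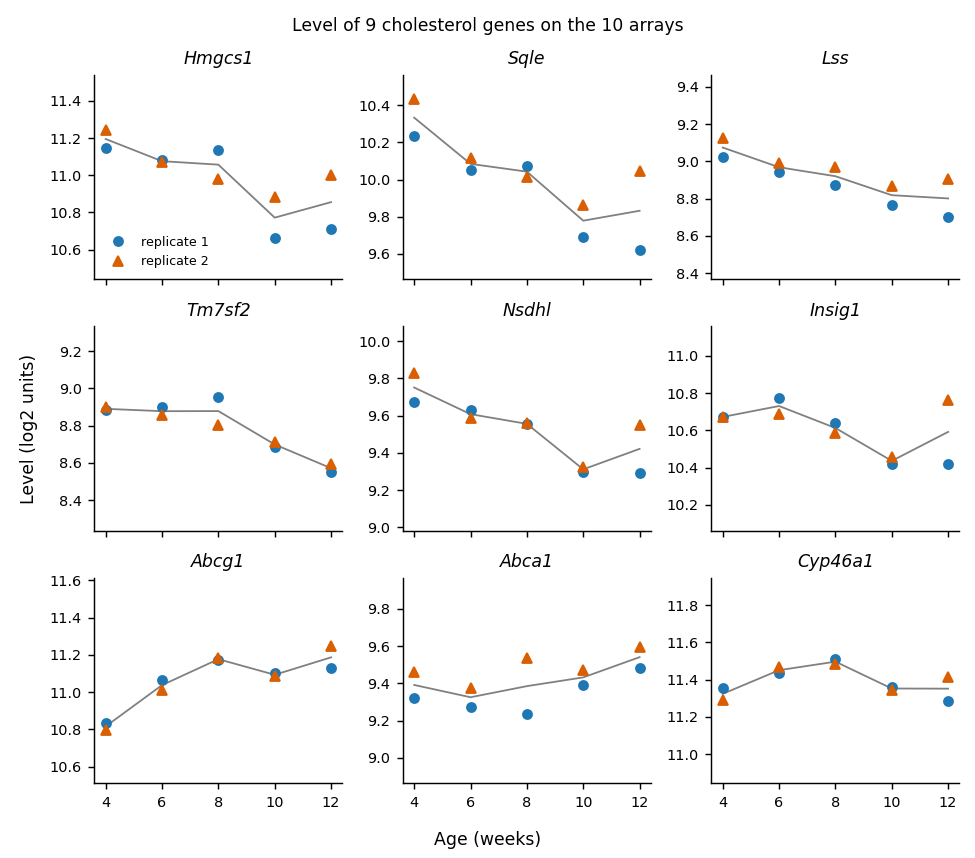
Level of 9 members (log2 units) against age in weeks, with a circle for replicate 1, a triangle for replicate 2 and a line through the age means. Each panel spans 1.1 log2 units. Sqle, Hmgcs1, Lss, Nsdhl and Tm7sf2 have higher means at 4, 6 and 8 weeks than at 10 and 12 weeks, whereas Abcg1 stands lowest at 4 weeks. For Sqle, Hmgcs1 and Lss 12 weeks replicate 2 lies above 1 of the 8-week arrays.

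The 5 genes of SREBP control had changes from −0.18 (Insig1) to 0.13 (Insig2). Srebf2, which encodes SREBP2, the main factor of cholesterol synthesis, stood at 11.37 and 11.36 at 4 weeks, 11.30 and 11.38 at 6 weeks, 11.37 and 11.35 at 8 weeks, 11.22 and 11.30 at 10 weeks, and 11.22 and 11.34 at 12 weeks. Its change was −0.10 ± 0.06, with a 95% interval from −0.23 to 0.02. Srebf1, whose products act mostly on fatty acid genes, had a change of 0.11 ± 0.07, with age means of 9.12, 9.16, 9.25, 9.30 and 9.20. Scap, which escorts both factors to the Golgi, had a change of 0.00 ± 0.06 and an interval from −0.13 to 0.13.

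Insig1 and Insig2 retain the complex in the endoplasmic reticulum, and Insig1 is itself a target of SREBP. Insig1 lay at 10.67 and 10.67 at 4 weeks, 10.77 and 10.69 at 6 weeks, 10.64 and 10.58 at 8 weeks, 10.42 and 10.45 at 10 weeks, and 10.42 and 10.76 at 12 weeks. The 10-week arrays and 12 weeks replicate 1 were low, and 12 weeks replicate 2 lay between the 6-week arrays. Its change was −0.18 ± 0.10 (adjusted p = 0.54), against 0.13 ± 0.08 for Insig2. None of the 5 genes of SREBP control reached an unadjusted p under 0.05 in the limma trend. Over all genes 7.28% did so with lower and 4.41% with higher levels, so 0 of 5 is near that share.

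Of the genes that move cholesterol inside the cell, Npc1 and Npc2 export it from lysosomes, and Stard4 carries it between membranes. Stard4 stood at 7.85 and 8.15 at 12 weeks, against 8.30 and 8.10 at 4 weeks, with a change of −0.17 ± 0.09. Npc2 had a change of −0.11 ± 0.07 and Npc1 one of 0.06 ± 0.06, and the 12- and 4-week arrays overlapped for all 3 genes. Npc2 was lowest at 10 weeks, at 9.46 and 9.49.

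Of the 4 measured genes of efflux and its control, 2 had changes below 0 and 2 above 0. Abcg1, a transporter that passes cholesterol to lipoproteins (chromosome 17, 31057694 to 31117984), lay at 10.84 and 10.80 at 4 weeks, 11.07 and 11.01 at 6 weeks, 11.17 and 11.18 at 8 weeks, 11.10 and 11.08 at 10 weeks, and 11.13 and 11.25 at 12 weeks. The 4-week arrays stood below all 8 later arrays and overlapped none of them. Its change was 0.32 ± 0.08 (adjusted p = 0.097), 1.25-fold higher over the series, and the 12-week mean exceeded the 4-week mean by 0.37 ± 0.07 (limma adjusted p = 0.056). With quantile normalization this second comparison passed (adjusted p = 0.029).

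Abca1, which loads cholesterol onto lipid-poor apolipoproteins, stood at 9.32 and 9.46 at 4 weeks, 9.27 and 9.38 at 6 weeks, 9.24 and 9.53 at 8 weeks, 9.39 and 9.47 at 10 weeks, and 9.48 and 9.60 at 12 weeks. The 8-week arrays lay farthest apart, and its change of 0.16 ± 0.09 did not pass (adjusted p = 0.54). In 4 members, Abca1, Abcg1, Srebf1 and Insig2, both 12-week arrays lay above both 4-week arrays, against 21.6% of all genes. Apoe, the main apolipoprotein of brain particles, lay at 13.69 and 13.78 at 4 weeks, 13.71 and 13.70 at 6 weeks, 13.72 and 13.67 at 8 weeks, 13.64 and 13.67 at 10 weeks, and 13.62 and 13.63 at 12 weeks. It had a change of −0.11 ± 0.05 (adjusted p = 0.43). Nr1h3, the liver X receptor alpha, had a change of −0.02 ± 0.06 and an interval from −0.16 to 0.12.

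Cyp46a1, the neuronal hydroxylase whose product leaves the brain, stood at 11.36 and 11.29 at 4 weeks, 11.43 and 11.47 at 6 weeks, 11.51 and 11.48 at 8 weeks, 11.36 and 11.34 at 10 weeks, and 11.29 and 11.42 at 12 weeks. The 6- and 8-week arrays were the highest, and the 12- and 4-week arrays overlapped. Its linear change was −0.02 ± 0.08, with an interval from −0.18 to 0.15. The F-test over any ages gave an unadjusted p of 0.13.

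Of 62 other genes of sterol and lipid handling on lists by role, 54 were measured. The trend called 1 of the 54, against 0.82% of all genes, so 1 call is not far from that share. Cyp11a1, the enzyme that cleaves the cholesterol side chain to start steroid synthesis, fell by 0.36 ± 0.06 on the log2 scale (SE, limma adjusted p = 0.025). Its mean was 7.36, not far above the 7.01 that marks dim signal. This call did not hold when 4 weeks replicate 1 (adjusted p = 0.093) or replicate 2 (0.083) was left out, nor without either 12-week array (0.051 and 0.089), without 6 weeks replicate 2 (0.058) and without 10 weeks replicate 1 (0.058). In the same list of 6 hydroxylases and related enzymes, Ch25h, whose oxysterol product acts on SREBP and liver X receptors, was higher at 12 than at 4 weeks by 1.10 ± 0.12 (adjusted p = 0.0063). Its mean of 6.70 is dim, its difference from 10 to 12 weeks was 0.98, and the call was lost without 4 weeks replicate 1 (0.093) or either 12-week array (0.094 and 0.069).

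Apod, a lipocalin that binds sterols, was higher at 12 than at 4 weeks by 0.55 ± 0.09 (adjusted p = 0.036). Most of the difference, 0.54, lay between 4 and 6 weeks. It did not pass when 1 of the 4-week arrays was left out (adjusted p = 0.23 and 0.28), nor without either 10-week array (0.061 each) or either 12-week array (0.18 and 0.26). It was the only gene of its list of 10 lipoprotein and efflux genes that passed, where 0.516% of all genes did. The first of that list, Abcg4 (−0.01 ± 0.07) and Abca2 (−0.08 ± 0.06), did not pass the trend.

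All 10 fatty acid genes known as SREBP targets had changes below 0, with a median of −0.09, and none passed. Fatty acid synthase, Fasn, had a change of −0.10 ± 0.06, Acaca, acetyl-CoA carboxylase, one of −0.08 ± 0.09, and the desaturase Fads2 the largest, −0.26 ± 0.05 (adjusted p = 0.052). Among 8 lipoprotein receptors and their regulators 3 had changes below 0 and 0 passed, with 0.08 ± 0.07 for Vldlr and 0.05 ± 0.12 for Lrp1. The 3 other genes of synthesis included Acat1 (−0.24 ± 0.06) and Acss2 (−0.18 ± 0.08), and 0 passed. The same held for 6 other genes of SREBP control, among them Mbtps1 (−0.12 ± 0.08) and Rnf139 (−0.08 ± 0.07). It also held for 11 genes of transport and storage, among them Lipa (0.20 ± 0.09) and Stard3 (0.02 ± 0.08).

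Of the main makers of the brain's cholesterol, oligodendrocytes had listed markers that fell over the same ages, whereas no listed astrocyte marker passed. Apod, also known as a gene of late oligodendrocytes but not on these lists, was higher at 12 than at 4 weeks (0.55 ± 0.09). Of 11 genes of myelinating oligodendrocytes 7 fell in the trend, which 0.82% of all genes passed. Mog (−0.76 ± 0.07, limma adjusted p = 0.00038) and Mag (−0.72 ± 0.10, adjusted p = 0.0046) were among the 7, and all 11 had changes below 0. All 4 genes of newly formed oligodendrocytes fell, among them Enpp6 (−1.18 ± 0.15) and Gpr17 (−0.77 ± 0.09), and 2 of 5 precursor genes did, Olig1 and Olig2. Without both 4-week arrays the calls of Mog, Mag and Enpp6 were lost (limma adjusted p = 0.085, 0.32 and 0.22). Those of Gpr17, Olig1 and Olig2 were lost without both 4-week arrays and also without both 12-week arrays. Leaving out any single array kept the calls of Mog, Mag, Enpp6 and Gpr17, but ended that of Olig1 in 8 of 10 cases (adjusted p up to 0.19) and that of Olig2 without 4 weeks replicate 1 or 12 weeks replicate 2 (up to 0.086). The myelin list had age means of 10.44, 10.31, 10.07, 10.01 and 9.96 from 4 to 12 weeks, and the newly formed list 9.14, 8.83, 8.60, 8.48 and 8.28, while the enzymes had 9.90, 9.82, 9.79, 9.61 and 9.69. Of 10 genes of immature neurons 6 fell, with list means of 9.54 at 12 weeks and 10.43 at 4 weeks. Of 10 astrocyte genes none passed, with list means between 11.34 and 11.43. None of the genes on the oligodendrocyte, immature neuron and astrocyte lists was dim. The part of these cells in the levels of the enzymes was not tested.

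**Figure D4:**
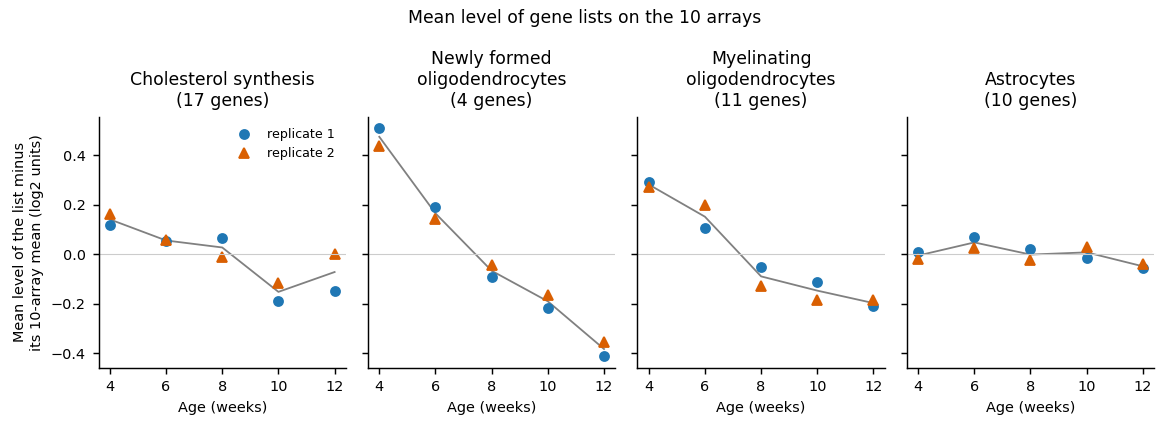
Mean level of 4 gene lists on each array minus the list's mean over the 10 arrays (log2 units), against age in weeks, with a circle for replicate 1, a triangle for replicate 2 and a line through the age means. The oligodendrocyte lists have lower means at later ages with like replicates at 12 weeks, whereas the enzymes of synthesis are lowest at 10 weeks and differ between the 12-week arrays (9.62 and 9.77 before centring).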

How the data were processed

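Total RNA of dentate gyri was measured on whole-transcript Affymetrix arrays. Per the labels' protocols, the gyri were cut out with a needle tip and the target was broken up and labelled with biotin. The deposited values, 1 per probe set, were treated as log2, from their range and like quartiles. The log base, background correction, summarization and normalization are not given in the sources used here, and mm10 is the build named in the submitters' processing notes.

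Of 25254 probe sets 21496 were annotated to 1 gene, 1565 to several and 2193 to none in the platform annotation, with symbols updated by gene number from RefSeq's table (GRCm38.p6), which changed 0. The brightest probe set per gene gave 19752 genes, with no filter. Arrays were grouped by the age and replicate number in the titles. limma 3.58.1 in R 4.3.3 was fitted to all genes, with age as a number (the trend) or as a factor (12 versus 4 weeks, the 4 steps and the F-test), two-sided, with Benjamini-Hochberg adjustment over all genes. Errors are standard errors, and the number of arrays limits the precision. The fits were tested on simulated data. Members and lists were chosen with earlier results of these data known, the lists by role: all members are named, and of each other pathway list the genes that passed, or else its first 2. Of a cell type list only its first 2 genes and those that passed could be named, and not all of them are. Fads2 is named besides, chosen after its values were seen. No table of the authors' comparisons was used. Alternatives were a replicate block, other scalings, a filter on dim genes, other variance models, array weights, log2 of age, and arrays or ages left out.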

Additional observations from a re-analysis of the deposited data

How the results depend on the processing

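All 17 enzymes of synthesis had a change below 0 in the trend under every alternative run, with medians from −0.33 to −0.19, the first without the 12-week arrays and the second without the 4-week arrays. The count of members past the threshold was 0 in the trend as reported, and it was 2 with a replicate block (Sqle and Lss) and with log2 of age, 5 with the dimmest 30% of genes left out, 7 with trended and robust variances and with array weights, and 1 without both arrays that stand apart or without the 12-week arrays. Abcg1 was among them with log2 of age, without the dimmest 30%, with trended variances and with array weights. Over single arrays left out the count ran from 0 to 3. The trend called 162 genes in all, and 337 without the dimmest 30%, 363 with trended variances, 417 with array weights, 51 without the 12-week arrays and 7 without the 4-week arrays. It called 35 to 279 with single arrays left out, the lowest without 4 weeks replicate 1 and the highest without 8 weeks replicate 1.

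Between 12 and 4 weeks 102 genes were called. The count was 66 with the replicate block, 210 without the dimmest 30%, 304 with trended variances, 261 with array weights, and 13 to 188 with single arrays left out. Members called there were 1 with quantile normalization, 2 without the dimmest 30%, with trended variances and with array weights, and 0 to 2 with single arrays left out. The F-test called 33 genes, 13 with the block, 69 without the dimmest 30% and with array weights, 158 with trended variances (1 member, Abcg1), and 5 to 50 with single arrays left out. The steps called 0 genes as reported. From 4 to 6 weeks the counts were 1 with quantile normalization, 3 without the dimmest 30% and with array weights, 11 with trended variances and 0 to 10 with single arrays left out. From 6 to 8 weeks they were 0 to 1079, the highest without 8 weeks replicate 2, which leaves the array that stands apart alone. From 10 to 12 weeks they were 2 with quantile normalization and without both arrays that stand apart, 3 without the dimmest 30%, 7 with trended variances, 4 with array weights and 0 to 1 with single arrays left out. The cause of these differences was not tested. Deviations of arrays with the same replicate number had correlations from −0.34 to 0.16, over 0.1 in 3 of 10 pairs. Whether the replicate number pairs arrays by design cannot be decided from these correlations. An alternative that leaves out an array leaves 1 array at that age, which is assumed to vary like the others.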
